A study of Mus musculus with 6 samples.

Results

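NF-kB is a family of paired transcription factor subunits that wait in the cytoplasm, bound by inhibitor proteins, until a receptor for a cytokine or a microbial product switches on a kinase that marks the inhibitor for destruction. The freed subunits enter the nucleus and bind kB sites in DNA, where they turn on chemokine genes and also the genes of their own inhibitors, so that the response shuts itself off. In the gut epithelium the pathway is known for calling in neutrophils and lymphocytes after damage or infection. The 10 genes described here were chosen by name: the subunit genes Nfkb1, Nfkb2, Rela and Relb, the feedback inhibitor genes Nfkbia and Tnfaip3, the chemokine genes Cxcl1, Cxcl5 and Cxcl16, and the cytokine gene Il18. All 10 were found among the 52249 genes of the deposited table, and all 10 had enough counts to be tested.

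The study measured gene expression in organoids of mouse intestine (stem-cell-derived epithelium cultured in a gel) by sequencing the 3′ ends of polyadenylated RNA. Apc, which encodes a tumour suppressor acting against WNT signalling, was knocked out in the mice that gave the organoids, and so in every library. The control group consisted of 3 libraries with the genotype Apc-knockout and the other group of 3 libraries with Apc-knockout and IGF2BP3 overexpression, called OE here. IGF2BP3 is an RNA-binding protein that is known to bind and stabilise target mRNAs, and the series title links it to MYC expression in colorectal adenoma cells. How Apc was removed, what drove IGF2BP3, whether a line is a single clone, the age and strain of the mice and the segment of intestine are not given in the sources used here. Organoids with intact Apc were not analysed here.

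Library totals ran from 2180087 to 2519886 counts, so the floor of 3 counts lay between 1.18 and 1.41 CPM (counts scaled to library size with TMM factors, the level used throughout). The mouse gene Igf2bp3 had 1, 0 and 0 counts in control replicates 1, 2 and 3 and 1, 0 and 0 counts in OE replicates 1, 2 and 3, so the counts gave no check of the overexpression label. Variation between libraries beyond counting error was estimated at 3.15% in control and 17.1% in OE libraries. The main test used a common spread per gene for both groups, although these spreads differed. The labels do not say whether replicates came from separate cultures, so p-values measure only the spread between these libraries. The library names run in a separate series for each group, so a batch that went with the series cannot be told apart from the group. Epithelial markers were abundant in all 6 libraries, with Cdh1, Krt18 and Krt8 the highest by group mean, although Cdx1 and Krt20 had no count in any library. Of 15 immune markers, 12 had at most 3 counts in every library, Ptprc among them, and the list summed to 41.3 to 52.1 CPM in control and 60.9 to 76.6 CPM in OE libraries, most of it from Csf1r and Cd68. The epithelial list summed to 4152 to 4390 CPM in control and 5403 to 6127 CPM in OE libraries, but its members did not move together: of 8 tested, 4 rose (Krt8, Krt18, Krt19 and Vil1), Cldn7 fell from 203 ± 14 CPM to 95.1 ± 15.1 CPM (SD, n = 3), and Cdh1 and Epcam were among those that did not pass. All 9 stromal and all 5 endothelial markers had at most 3 counts in every library.

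RefSeq promoter windows of GRCm38.p6, reaching from 250 bases before to 50 bases after an annotated start, were found for 6 of the 10 genes (Nfkb2, Rela, Nfkbia, Tnfaip3, Cxcl1 and Il18), and the other 4, Nfkb1, Relb, Cxcl5 and Cxcl16, are named only. The windows were searched on both strands for the 10-base kB consensus motif (3 G, a purine, 2 bases of any kind, 2 pyrimidines and 2 C). Counted by gene, 4 of the 6 (Nfkb2, Nfkbia, Tnfaip3 and Cxcl1) held at least 1 match, against 9.55% of 27025 mouse genes, and Rela and Il18 held none. Counted by window, 6 of their 9 windows held a match, against 8.46% of 32851 windows. The 250 bases before the start of Cxcl1 (chr5:90890995-90891244, plus strand) are shown because 2 matches, on opposite strands and shifted by 1 base, merge into 1 stretch just upstream of its start. Those of Il18 (chr9:50554450-50554699, plus strand) are shown because it was the only gene with a promoter window whose level passed the test below. Capitals mark the matches, and each sequence runs 5′ to 3′ on the strand of its gene.
Cxcl1: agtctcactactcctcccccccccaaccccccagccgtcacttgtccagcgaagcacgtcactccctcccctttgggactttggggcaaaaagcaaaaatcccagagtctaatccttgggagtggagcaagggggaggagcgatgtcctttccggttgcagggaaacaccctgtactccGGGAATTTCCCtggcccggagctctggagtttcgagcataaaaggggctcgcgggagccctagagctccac
Il18: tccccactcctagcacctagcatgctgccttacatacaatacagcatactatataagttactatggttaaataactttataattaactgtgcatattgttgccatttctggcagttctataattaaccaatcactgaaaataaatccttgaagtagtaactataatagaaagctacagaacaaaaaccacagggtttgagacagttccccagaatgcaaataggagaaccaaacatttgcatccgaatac

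The sites of the feedback genes are shown as windows of 30 bases so that they can be compared base by base. Nfkb2 has 3 RefSeq starts, and the windows come from the first (chr19:46304688-46304717, match at -39 from the start, and chr19:46304716-46304745, match at -11) and the second (chr19:46305695-46305724, match at 10). A further match of Nfkb2 at -236 from the second start is not shown. The Nfkbia window (chr12:55492657-55492686, minus strand) holds a match at -29, and the Tnfaip3 windows (chr10:19015516-19015545 and chr10:19015403-19015432, minus strand) hold matches at -125 and -12. The palindromic first site of Nfkb2 overlaps another match shifted by 1 base that is left in lower case. These matches are descriptions of letters in a window, and factor binding was not measured.
Nfkb2 first start, distal: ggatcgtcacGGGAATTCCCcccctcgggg
Nfkb2 first start, proximal: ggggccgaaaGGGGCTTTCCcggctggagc
Nfkb2 second start: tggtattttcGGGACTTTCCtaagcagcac
Nfkbia: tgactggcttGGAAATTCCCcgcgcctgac
Tnfaip3 distal: gactcacgcgGGGACACCCCggggcgggac
Tnfaip3 proximal: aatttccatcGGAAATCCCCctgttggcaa

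Between OE and control, 3 of the 10 genes passed the test (edgeR quasi-likelihood, adjusted p below 0.05 over 10687 genes) and all 3 rose: Cxcl5, Cxcl16 and Il18. The call of Il18 was lost in 13 of 19 other settings. The subunit genes among the 10, both feedback inhibitor genes and Cxcl1 did not pass. Rel, a subunit gene outside the 10, fell and passed (edgeR adjusted p = 0.0175). The background was high, since 29.2% of all tested genes passed in either direction, 16.5% higher and 12.7% lower, so the share of 3 in 10 was that of genes at large. The median log2 fold change of the 10 genes was 0.22, against 0.04 for all tested genes. For 4 of the 10 the groups occupied separate ranges of CPM, 3 higher in OE and 1, Nfkbia, lower, where 25.3% of all tested genes were separate and higher and 20.5% separate and lower (45.7% in all). In bulk RNA, a change in the number of cells that make a transcript and a change in transcript per cell cannot be told apart.

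**Figure D1:**
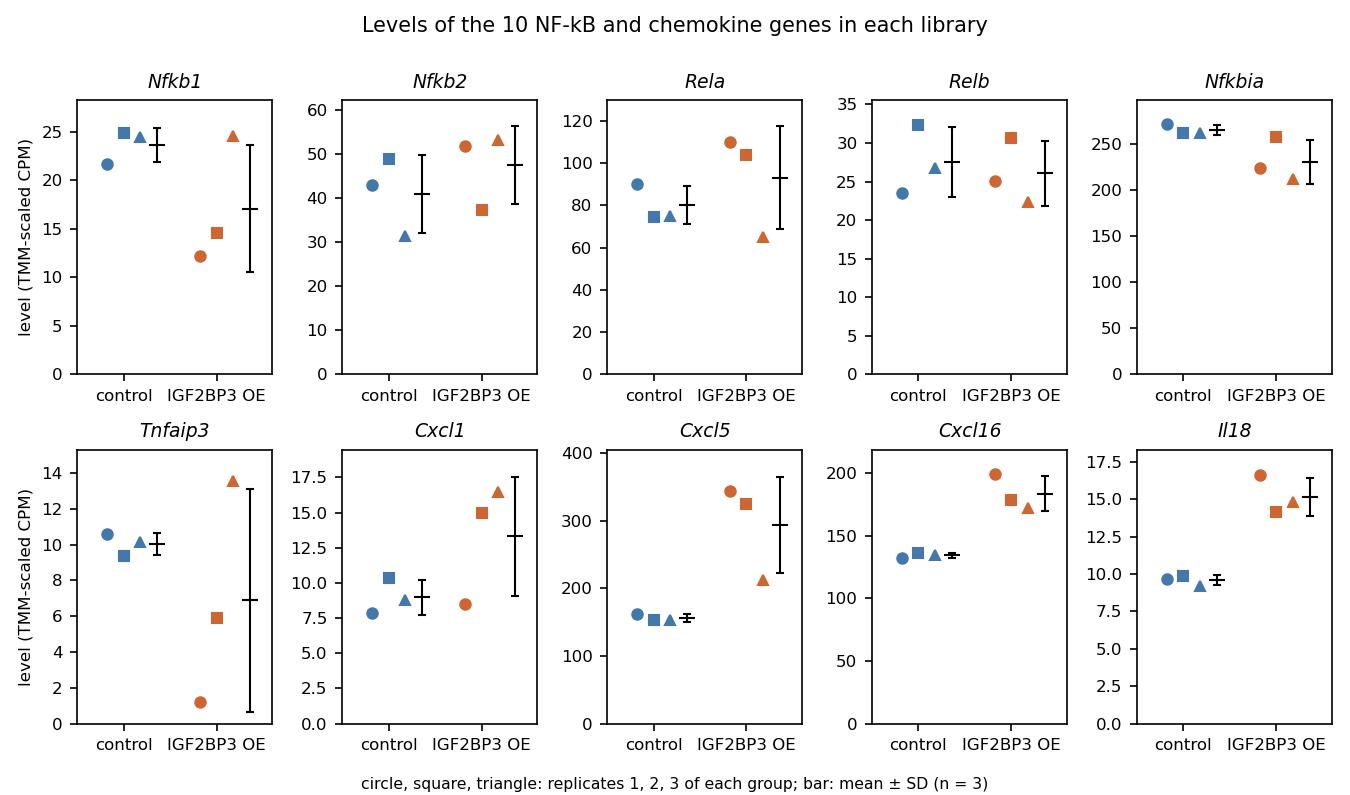
Level of each of the 10 genes (vertical axes, TMM-scaled CPM, from 0) in the 3 control and 3 OE libraries, with the mean and SD of each group as a bar. Cxcl5, Cxcl16 and Il18 lie above control in all 3 OE libraries, while the OE libraries of Tnfaip3 spread from 1.22 to 13.5 CPM.

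Rela encodes p65, the main activating subunit of the canonical pathway. Its level was 90.3, 74.6 and 75.1 CPM in control replicates 1, 2 and 3 and 110.2, 104 and 65.1 CPM in OE replicates 1, 2 and 3. OE replicates 1 and 2 were above every control library and OE replicate 3 below every one, so the groups overlapped. The log2 fold change was 0.22 (SE 0.18, 95% interval -0.17 to 0.61, edgeR adjusted p = 0.379). Without OE replicate 3 it was 0.42 and passed (adjusted p = 0.0212), and with an offset for GC content it was -0.03 (adjusted p = 0.913). Rela lies on the plus strand of chromosome 19, 5637483 to 5648130 in GRCm38, and overlaps no annotated gene.

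Nfkb1 encodes p105, which is cut to the DNA-binding subunit p50, the usual partner of p65. It stood at 21.7, 24.9 and 24.4 CPM in control and at 12.2, 14.55 and 24.5 CPM in OE libraries, in replicate order. OE replicates 1 and 2 were below all control libraries, and OE replicate 3 was level with them. The log2 fold change was -0.47 (SE 0.25, 95% interval -1.01 to 0.06, edgeR adjusted p = 0.17), and without OE replicate 3 it was -0.82 and passed (adjusted p = 0.0126). Calls of both partners of the p50 and p65 pair therefore turned on OE replicate 3, with Rela higher and Nfkb1 lower when it was left out. Nfkb1 (chromosome 3, 135584655 to 135691547, minus strand) overlaps 1 annotated gene on its own strand, so its counts can hold reads of that gene.

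Nfkb2 and Relb form the pair of the non-canonical pathway, which is driven by receptors such as the lymphotoxin beta receptor, and both are known targets of NF-kB itself. Nfkb2, whose product p100 is cut to p52, was at 42.9, 48.8 and 31.3 CPM in control and at 51.9, 37.4 and 53.3 CPM in OE libraries. The control libraries alone spread by more than the difference between the group means. The log2 fold change was 0.21 (SE 0.19, 95% interval -0.2 to 0.62, edgeR adjusted p = 0.429), and it was -0.033 with the GC offset. Relb was at 23.5, 32.4 and 26.7 CPM in control and at 25.1, 30.7 and 22.4 CPM in OE libraries, and their ranges largely coincided. Its log2 fold change was -0.08 (SE 0.19, 95% interval -0.49 to 0.34, edgeR adjusted p = 0.797), and the sign changed without OE replicate 3 (0.025) and without control replicate 2 (0.055). These 95% intervals reached no further than 0.62 log2 units from 0, in a fit that took a common spread for both groups. Nfkb2 (chromosome 19, 46304320 to 46312385, plus strand) overlaps 2 genes on the opposite strand, and Relb (chromosome 7, 19606217 to 19629438, minus strand) overlaps none.

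Taken as a pool, transcripts of all 5 subunit genes (these 4 and Rel) summed to 172 to 198 CPM in control and to 173 to 208 CPM in OE libraries. Reads come from near the 3′ end of each transcript, so CPM of different genes was added and ranked without a length term. Rela made up 42.6% ± 3.71 of the pool in control and 47.9% ± 8.9 in OE libraries (SD, n = 3), the largest share in each library. Neither the pool nor the Rela share separated the groups.

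Nfkbia encodes IkB-alpha, the inhibitor that holds p65 in the cytoplasm and is remade within an NF-kB response. It was the most abundant of the 10 genes in control libraries, at 272, 262 and 262 CPM, against 224, 257 and 211 CPM in OE libraries. Each OE library lay below each control library, although OE replicate 2 did so by a narrow margin. The log2 fold change was -0.20 (SE 0.11, 95% interval -0.43 to 0.03, edgeR adjusted p = 0.178). Offsets for sequence composition or length moved this value past the threshold: -0.34 with the GC offset (adjusted p = 0.035) and -0.38 with the length offset (adjusted p = 0.0186). Nfkbia (chromosome 12, 55489410 to 55492647, minus strand) overlaps no annotated gene, and the GC content of its longest transcript was 52.9%, within the range of 41.3% to 59.4% among the 10 genes.

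Tnfaip3 encodes A20, an enzyme that edits ubiquitin chains on the signalling complex and so ends the response. It rested on 23, 20 and 22 counts in control libraries and on 3, 15 and 32 counts in OE libraries, or 10.6, 9.38 and 10.1 CPM against 1.22, 5.90 and 13.5 CPM. Control libraries were tightly grouped, OE replicate 1 was at the floor of 3 counts, and OE replicate 3 exceeded every control library. The log2 fold change was -0.56 (SE 0.5, 95% interval -1.63 to 0.52, edgeR adjusted p = 0.424), the widest interval among the 10 genes. Leaving out OE replicate 3 gave -1.47, which passed (adjusted p = 0.0261), and leaving out OE replicate 1 gave -0.12. Tnfaip3 lies on chromosome 10, 19000910 to 19015657, minus strand, with no overlapping gene.

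Cxcl5, a chemokine that attracts neutrophils through the receptor CXCR2 and is made largely by epithelial cells, was at 162, 153 and 153 CPM in control and at 344, 324 and 212 CPM in OE libraries. All OE libraries lay above all control libraries, and OE replicate 3 was well below the other two. Cxcl5 rose 1.88-fold, a log2 fold change of 0.91 (SE 0.16, 95% interval 0.57 to 1.25, edgeR adjusted p = 0.00131). Of the 10 genes it had the largest change. Among the 10687 tested genes, 834, itself included, had a log2 fold change of at least that size in either direction. The call held in each of 19 other settings, where the log2 fold change ran from 0.73 (without OE replicate 1) to 1.17 (GC offset). With OE replicates 1 and 2 high, Cxcl5 became the most abundant of the 10 genes in those libraries, ahead of Nfkbia, whereas in OE replicate 3 the levels were nearly equal. Cxcl5 lies on chromosome 5, 90759360 to 90761624, plus strand, and overlaps no annotated gene.

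Cxcl1 lies on chromosome 5 like Cxcl5 (90891241 to 90893115, plus strand), with Cxcl3 and Cxcl15 between them. Its product also acts on CXCR2, and it was counted far less. It had control counts of 17, 22 and 19 and OE counts of 21, 38 and 39, or 7.83, 10.3 and 8.75 CPM against 8.51, 14.9 and 16.5 CPM. OE replicates 2 and 3 were above all control libraries and OE replicate 1 lay among them. The log2 fold change was 0.57 (SE 0.29, 95% interval -0.06 to 1.19, edgeR adjusted p = 0.157), and without OE replicate 1 it was 0.75 and passed (adjusted p = 0.0324). Cxcl5 was lowest among OE libraries in replicate 3 and Cxcl1 in replicate 1, so Cxcl5 and Cxcl1 did not follow each other within the OE group. Cxcl2 was lowest in OE replicate 1 and highest in OE replicate 3, as Cxcl1 was. In the sum of 4 chemokine genes whose products act on CXCR2 (Cxcl1, Cxcl2, Cxcl3 and Cxcl5; others were left out), Cxcl5 gave 84.5% ± 3.17 of the CPM in control and 89.1% ± 7.05 in OE libraries (SD, n = 3). That sum was 177 to 189 CPM in control and 260.4 to 361 CPM in OE libraries, without overlap.

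Cxcl16 encodes an unusual chemokine that is anchored in the membrane, binds CXCR6 on lymphocytes and is released when cut by the protease ADAM10. Its level was 132, 136.5 and 134.5 CPM in control and 199, 179 and 172.5 CPM in OE libraries. Control libraries differed little from each other, and the lowest OE library was well clear of them. Cxcl16 rose 1.37-fold, a log2 fold change of 0.45 (SE 0.11, 95% interval 0.22 to 0.68, edgeR adjusted p = 0.00805). The call was lost in 1 of 19 other settings, without control replicate 1 (0.43, adjusted p = 0.051). Cxcl16 lies on chromosome 11, 70453983 to 70459984, minus strand, and overlaps 1 gene on the opposite strand, so that without a stated strand setting its counts can include reads of that gene. Csf1r, the immune marker with the highest level, was also higher in OE libraries (27.7 to 32.7 CPM in control, 44 to 55.5 CPM in OE), as was the epithelial sum through its keratins and Vil1 but not Cldn7, Cdh1 or Epcam, and their part in the levels of Cxcl5, Cxcl16 and Il18 was not tested. Csf1r overlaps 1 gene on its own strand and 1 on the opposite strand, so its counts can include reads of those genes. Ptprc, which marks all white blood cells, had at most 2 counts in any library.

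Il18 encodes a cytokine that gut epithelial cells store as an inactive precursor, which inflammasome caspases cut. It had control counts of 21, 21 and 20 and OE counts of 41, 36 and 35, or 9.68, 9.85 and 9.21 CPM against 16.6, 14.2 and 14.8 CPM. All OE libraries were above all control libraries, and both groups were tight. Il18 rose 1.58-fold, a log2 fold change of 0.66 (SE 0.22, 95% interval 0.18 to 1.14, edgeR adjusted p = 0.0402). The direction held in each of 19 other settings (0.44 to 0.82), but the call was lost in 13 of them, among them DESeq2 (adjusted p = 0.224), the replicate block (adjusted p = 0.0615) and every fit without a single library: 0.104, 0.101 and 0.125 as adjusted p without control replicates 1, 2 and 3, and 0.114, 0.0738 and 0.0513 without OE replicates 1, 2 and 3. Il18 lies on chromosome 9, 50554827 to 50581840, plus strand, and overlaps 2 genes on the opposite strand.

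**Figure D2:**
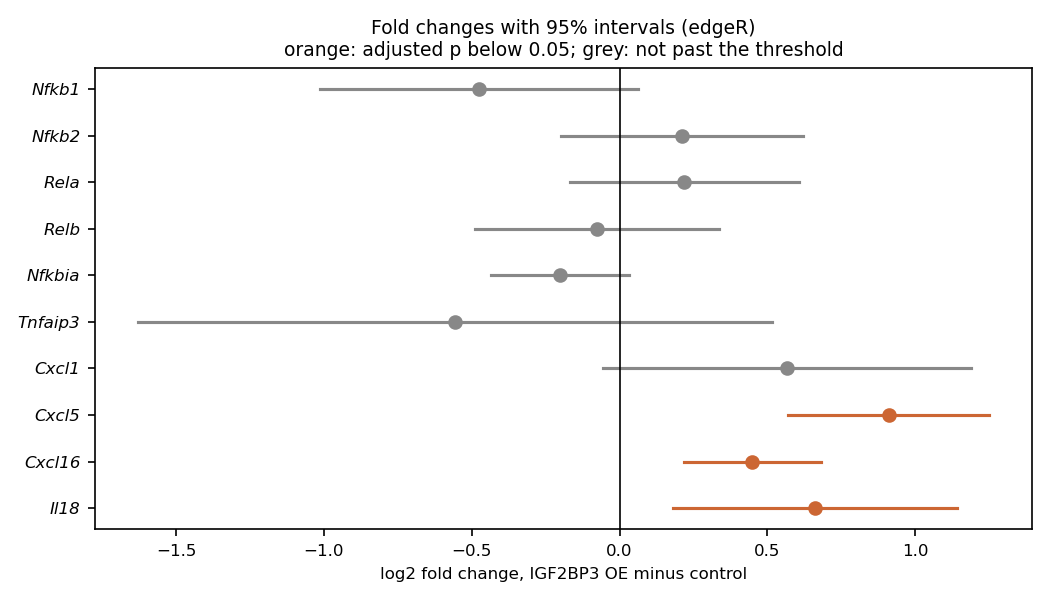
Log2 fold change of each of the 10 genes, OE minus control (horizontal axis), with its 95% interval from edgeR; orange marks an adjusted p below 0.05. The intervals of Cxcl5 (0.57 to 1.25), Cxcl16 (0.22 to 0.68) and Il18 (0.18 to 1.14) lie above 0, and those of the other 7 genes include 0.

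Across the 19 other settings, Cxcl5, Cxcl16, Il18 and Cxcl1 stayed above 0, and Nfkb1, Nfkbia and Tnfaip3 stayed below 0. Rela, Nfkb2 and Relb crossed 0. The number of the 10 genes that passed ran from 1 (Cxcl5 alone, without control replicate 1) to 5 (without OE replicate 3, when Rela and Nfkb1 and Tnfaip3 passed together with Cxcl5 and Cxcl16).

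**Figure D3:**
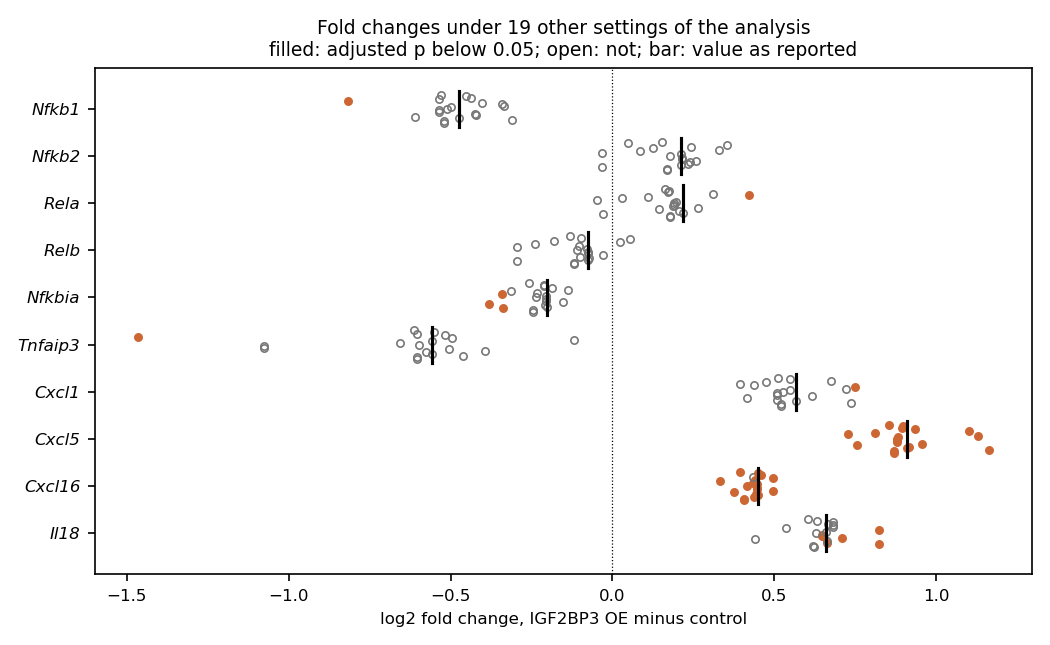
Log2 fold change of each of the 10 genes (horizontal axis, OE minus control) in 19 other settings (circles, filled where adjusted p is below 0.05) and as reported (bar). All circles of Cxcl5 are filled, between 0.73 and 1.17, and those of Tnfaip3 spread from -1.47 to -0.12.

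The remaining genes of the pathway were taken from lists written from general knowledge, but with earlier results of these data known. Shares within these lists are therefore not independent of the values counted. Of 93 tested genes in these lists besides the 10, 36 passed, 18 higher and 18 lower, a share of 38.7% beside 29.2% of all genes. Their median log2 fold change was 0.01. The lists for the receptors and for other genes taken as NF-kB targets had more genes higher than lower. Those for the inhibitors and the IL-18 axis had more genes lower than higher. These are counts and not tests of a list.

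**Figure D4:**
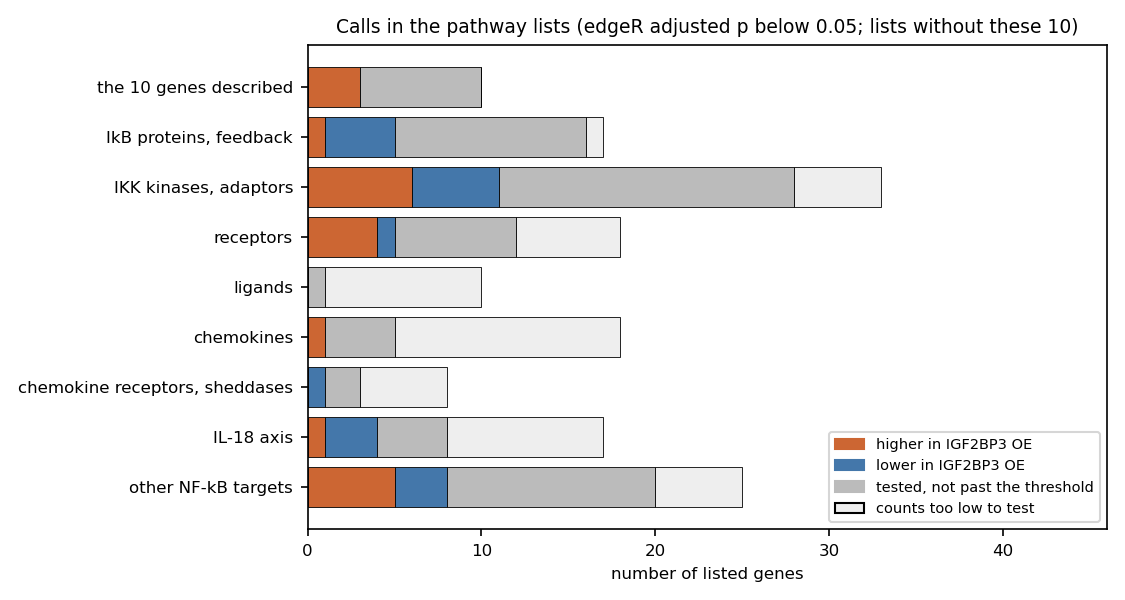
Number of genes (horizontal axis) in the 10 genes described and in each pathway list without them that were higher, lower or not past the threshold (edgeR adjusted p below 0.05), or too low to test. Receptors had 4 higher and 1 lower of 12 tested, and the inhibitor and feedback list 1 higher and 4 lower of 16 tested.

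Rel, which encodes the remaining subunit, c-Rel, fell from 15.6 ± 3.31 CPM to 8.39 ± 0.725 CPM (SD, n = 3, log2 fold change -0.89, edgeR adjusted p = 0.0175), a call lost in 5 of 19 settings, including without control replicate 1 (adjusted p = 0.0941). Of the inhibitors and feedback regulators besides Nfkbia and Tnfaip3, 4 of 16 tested genes fell and 1 rose. Nfkbiz, the gene of the nuclear co-factor IkB-zeta, fell by 0.60 on the log2 scale, a call lost without control replicate 1 (adjusted p = 0.0741). Bcl3, a co-factor of p50 and p52, fell by 0.57, a call lost in 6 of 19 settings, including without OE replicate 3 (adjusted p = 0.0744) and control replicate 1 (0.0728), 2 (0.148) or 3 (0.0815). Itch, a ubiquitin ligase that works with A20, fell by 0.74 in a call that held in 19 settings, and Otulin, which removes linear ubiquitin chains, rose by 0.70 in a call lost in 5, including without control replicate 2 (adjusted p = 0.0706). Itch overlaps 1 gene and Bcl3 and Otulin 2 genes each on the opposite strand.

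Upstream of the subunits, 6 of 28 tested kinase and adaptor genes rose and 5 fell. Irak2, a kinase of Toll-like and IL-1 receptor signalling that overlaps 3 other genes, rose by 0.85, Tradd, an adaptor of the TNF receptor, by 0.89 and Sharpin, of the linear ubiquitin ligase, by 0.72, while Malt1, a protease of the CARD-BCL10 complex, fell by 0.98; all 4 calls held in 19 settings. Chuk, a kinase gene of the same list, fell from 54.7 ± 8.02 CPM to 27.2 ± 12 CPM (log2 fold change -1.01, edgeR adjusted p = 0.0123), with separate ranges. Map3k14, also on that list, did not pass (log2 fold change 0.40, edgeR adjusted p = 0.299). The other settings were not compared for Chuk and Map3k14. Among receptors, 4 of 12 rose and 1 fell. Ltbr, the lymphotoxin beta receptor gene upstream of the Nfkb2 and Relb pair, rose from 165 ± 5.74 CPM to 271 ± 26.5 CPM (SD, n = 3, log2 fold change 0.71, edgeR adjusted p = 0.000664). Il17re, part of the receptor for IL-17C, rose by 0.72, and both calls held in 19 settings. Tnfrsf1a, the main TNF receptor gene, rose by 0.55 (lost in 2 of 19 settings, the GC offset alone, adjusted p = 0.0533, or with the replicate block, 0.0581), and Il17rc by 0.71 (lost in 5 of 19 settings, including without control replicate 1, adjusted p = 0.0618, or 3, 0.0551). Of 10 ligand genes only Il33 could be tested, and it did not pass (log2 fold change -0.08, 95% interval -0.54 to 0.38, edgeR adjusted p = 0.801).

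Adam10, the gene of the protease that releases CXCL16, fell from 165 ± 7.58 CPM to 97.6 ± 9.22 CPM (SD, n = 3, log2 fold change -0.76, edgeR adjusted p = 0.00061), opposite in direction to Cxcl16, and the call held in 19 settings. The receptor genes Cxcr1 and Cxcr6 had no count in any library. Cxcl5 and Cxcl16 were the most abundant of the 21 listed chemokine genes in every library, and the list summed to 382 to 409 CPM in control and 541 to 624 CPM in OE libraries. Of the 5 tested chemokines besides the 3 described, Ccl6 alone passed, rising by 1.52 (edgeR adjusted p = 0.00345) on 6 to 7 counts per control library against 20 to 24 per OE library.

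In the IL-18 axis without Il18, 1 of 8 tested genes rose and 3 fell. Gsdmd, the gene of the pore protein through which such cytokines leave the cell, rose from 71.8 ± 9.36 CPM to 113 ± 3.66 CPM (SD, n = 3, log2 fold change 0.65, edgeR adjusted p = 0.00262). Il18r1, a chain of the IL-18 receptor, fell by 0.63, Casp4 by 0.71 and the flagellin sensor gene Naip5, which has similar neighbours that can share its reads, by 0.87. These 3 calls were lost in 7, 10 and 10 of 19 settings, including each fit without a control library (adjusted p = 0.0503 to 0.119 for Naip5, 0.0961 to 0.123 for Casp4 and 0.0516 to 0.113 for Il18r1). Casp1, the gene of the caspase best known to cut the IL-18 precursor, had no count in any library. Among other genes listed as NF-kB targets, 5 of 20 tested genes rose and 3 fell. The antimicrobial genes Reg3g (by 1.44), Reg3b (by 1.44) and Lcn2 (by 1.28) rose, as did Tapbp, of antigen presentation (by 0.74). These 4 calls held in 19 settings. Whether NF-kB acts on the listed genes in these organoids was not tested. The genes of that list that fell were Csf1 (log2 fold change -1.18, edgeR adjusted p = 0.00702), Cflar (-0.77, adjusted p = 0.00211) and Gadd45b (-0.50, adjusted p = 0.0318). The other settings were not compared for Csf1, Cflar and Gadd45b. Reg3b and Reg3g are close paralogues, so reads may be shared between them. Tapbp overlaps 1 gene on its own strand and 1 on the opposite strand.

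**Figure D5:**
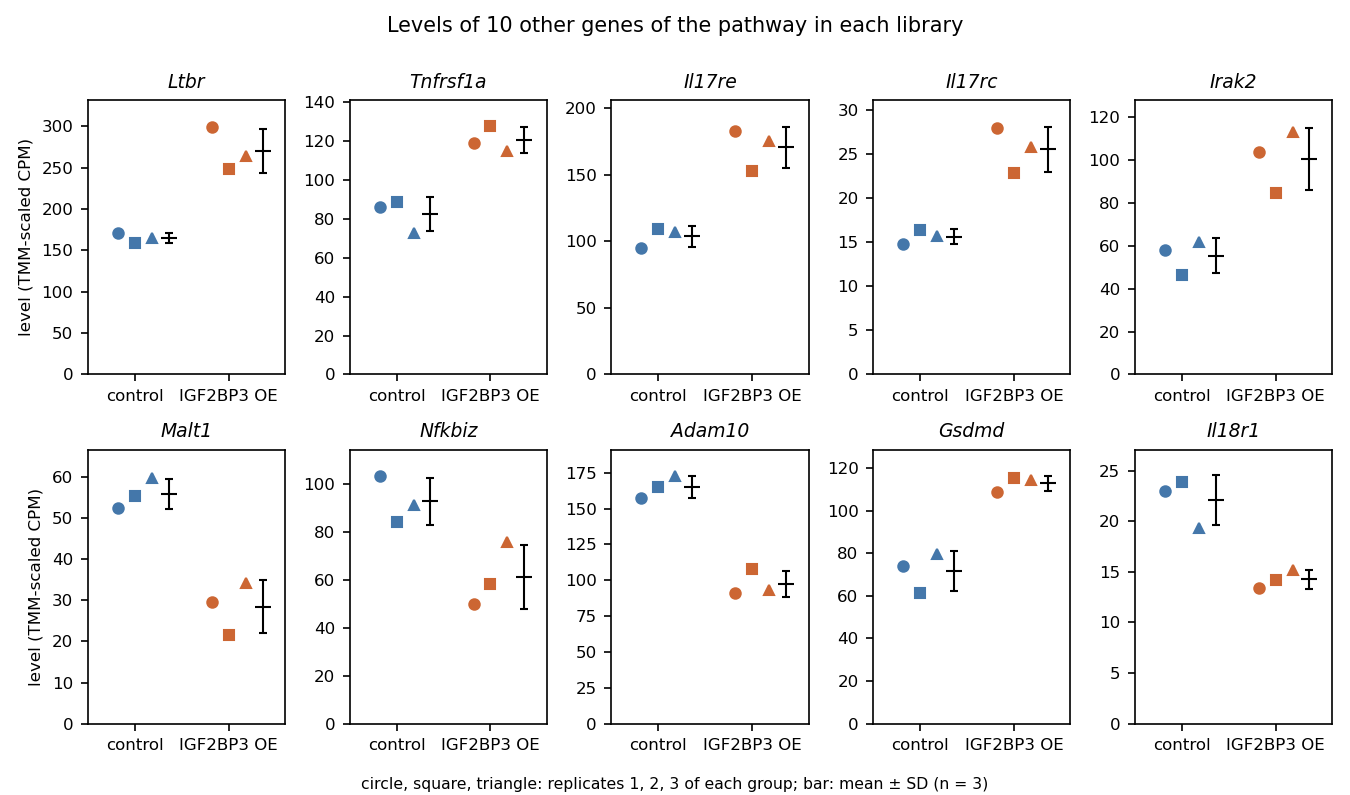
Level (vertical axes, TMM-scaled CPM, from 0) of 10 other genes of the pathway in each library, with the mean and SD of each group as a bar. Ltbr, Tnfrsf1a, Il17re, Il17rc, Irak2 and Gsdmd lie higher and Malt1, Nfkbiz, Adam10 and Il18r1 lower in all 3 OE libraries than in any control library. The genes shown were picked from those named for passing the test with separate ranges, so their separation was set by the choice. Of all tested genes, 45.7% were separate.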

How the data were processed

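Libraries were made from total RNA with a QuantSeq 3′ forward kit, per the labels' protocols. STAR, HTSeq and the build mm10 (GRCm38) are named in the submitters' processing notes; annotation, strand setting and the handling of multi-mapping reads and molecular identifiers are not given in the sources used here. The values deposited by the authors are estimated counts without normalization, of which 2843 values were fractional and were rounded here; a test for whole counts had been planned. Groups and replicate numbers came from sample titles and columns were matched by library name.

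OE was compared with control over all 6 libraries without covariates by the edgeR 4.0.16 quasi-likelihood test (R 4.3.3), with filterByExpr, TMM factors and Benjamini-Hochberg adjustment over all 10687 genes kept. The standard error was taken as the log2 fold change over the root of its F, and 95% intervals use the test's own degrees of freedom. The alternatives were DESeq2 1.42.0, limma-voom (limma 3.58.1), other scalings and filters, equal depth, removal of mitochondrial genes, a replicate block, a GC offset (loess, span 0.5) and each library left out; a length offset and a variance per group were added after the data were seen. Fits were also run on simulated data that gave both groups the same spread per gene. That run therefore cannot show how the fits behave where the spread differs between groups, as it did here. Gene positions and transcripts are from GENCODE M21.

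The 10 genes and all lists were chosen with earlier results of these data known. Besides the 10, genes were named by rule, up to 4 per list. These had the smallest p among genes with adjusted p below 0.05 and no overlap between groups. Csf1r, Il33, Casp1, Chuk, Map3k14, Csf1, Cflar, Gadd45b and genes without counts were named after their values were seen. Counting floors cover counting error only, since reads are not independent molecules.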

Additional observations from a re-analysis of the deposited data

How the results depend on the processing

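Of 190 values of the 10 genes under 19 alternatives, 163 kept direction and side of the threshold, 14 no longer passed, 7 newly passed and 6 changed sign without passing. The sign changes were those of Nfkb2 (-0.0326 under the GC offset and -0.0334 once a replicate block was added to it), Rela (-0.0304 and -0.0485 in those fits) and Relb (0.0248 without OE replicate 3 and 0.055 without control replicate 2, in a range from -0.238 over the fits without a single library and from -0.295 over all alternatives). Of 437 values of the 23 genes named by rule, 386 kept both and 51 no longer passed. The count of the 10 genes that passed was 3, with 2 at adjusted p below 0.01 and 1 (without control replicate 1) to 5 (without OE replicate 3) on leaving out a library. Over all genes, 3118 passed, 1578 at adjusted p below 0.01 and 1748 to 3532 without a single library. In the pathway lists, 36 passed, 20 with DESeq2, 17 at adjusted p below 0.01 and 20 to 36 without a single library. The cause was not tested. The split of all calls depended on scaling: the higher calls made up 56.6% under TMM, 49.9% under the size factors of DESeq2 and 63.8% under library totals. With the replicate block, 3112 genes and 2 of the 10 passed, Il18 being the call that was lost (adjusted p = 0.0615). Deviations of equally numbered libraries correlated at 0.02 to 0.1, and 5 of 6 libraries correlated best with their own number. These deviations were centred within each group, so the matches are not independent of each other. With correlations this weak, they do not settle whether the numbers pair the cultures. Tnfaip3, Cxcl1 and Il18 rest on at most 41 counts per library, which limits what could be detected.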

Other observations

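Some genes of the pathway differed more among the 3 OE libraries than between the groups; these were chosen after their values were seen. Ccl20, a chemokine gene that draws in lymphocytes and dendritic cells, had 43, 50 and 40 counts in control replicates 1, 2 and 3 and 5, 34 and 76 counts in OE replicates 1, 2 and 3. Cxcl2, a further CXCR2 chemokine gene, had control counts of 38, 49 and 31 and OE counts of 20, 49 and 73. Like Tnfaip3 (3, 15 and 32 counts in OE libraries), both were lowest in OE replicate 1 and highest in OE replicate 3. Nfkb1 and Cxcl1 ranked in the same order. Rela, Cxcl5 and Cxcl16 ranked in the opposite order, highest in OE replicate 1 and lowest in OE replicate 3. Neither passed the test between the groups (edgeR adjusted p = 0.609 for Ccl20 and 0.887 for Cxcl2).

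Tnf and Il1a, which encode cytokines that switch the pathway on, were too low to be tested and were picked from 10 ligand genes after their values were seen. Tnf had control counts of 4, 2 and 3 and OE counts of 13, 9 and 6, and Il1a had control counts of 0, 2 and 2 and OE counts of 6, 3 and 6. Tnfsf12, from the same list, had control counts of 1, 1 and 1 and OE counts of 0, 0 and 0. Counts this low do not show a difference between the groups.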
